A study of Cardamine hirsuta with 6 samples.

Results

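DNA affinity purification sequencing (DAP-seq) of ChCUC1, a NAC transcription factor of *C. hirsuta*, gave 4 reproducible peaks at 3 genes of the *YUCCA* (*YUC*) family of auxin synthesis. The genes are CARHR003960 (*YUC3*), CARHR127240 (*YUC7*) and CARHR236510 (*YUC8*), named after their *Arabidopsis thaliana* matches AT1G04610, AT2G33230 and AT4G28720. They were chosen by gene, and their peaks were then located by position among 2432 reproducible peaks. The genes were picked with these peaks already known, so the presence of a peak at each of them is a description and not a test. Peaks lay in the first exon of all 3 genes, and *YUC7* had another in intergenic DNA upstream.

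The assay compared 3 ChCUC1 samples, in which the factor carried a HaloTag and was made in a wheat germ extract, with 3 Halo control samples. All 6 used genomic DNA of the Oxford genotype. According to the protocol it came from rosette leaves of plants aged 4 weeks, whereas the tissue label reads seedlings. The DNA carries no chromatin, so the peaks report binding in vitro and not in any leaf cell type. The values are those of 4 lists made by the authors. One is the reproducible list, which by its name was selected with the irreproducible discovery rate. The other 3 lists each rest on the reads of 1 ChCUC1 library, with all Halo control reads pooled as the background. The single-library lists are a whole-library list of 4778 peaks and 2 lists from pseudoreplicates, which are random parts of the reads of a library, with 3753 peaks (the longer pseudoreplicate list) and 3253 (the shorter one). They carry no replicate numbers and no read counts, so the depth of each library is unknown. By their names, the whole-library list shares a run number with 1 pseudoreplicate list, and the other pseudoreplicate list has a different run number.

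Auxin is made from tryptophan mainly in a pathway with a pair of steps. Aminotransferases of the TAA1/TAR family convert tryptophan to indole-3-pyruvate, and YUC flavin monooxygenases turn this into indole-3-acetic acid, the main natural auxin. The YUC step is regarded as the rate-limiting one, and members of the family act redundantly in different organs. In *A. thaliana*, *YUC3*, *YUC7* and *YUC8* belong to a group with prominent roles in the root, and *YUC8* also acts in the responses of seedlings to shade and warmth. At leaf margins, local auxin maxima precede serrations and leaflets, and CUC factors act at the boundaries between these outgrowths.

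Both peaks of *YUC7* had a higher enrichment than those of *YUC8* and *YUC3*, in the reproducible list and in every single-library list with a call. In the reproducible list, the fold enrichment over the Halo control was 4.24 at the distal peak of *YUC7*, which ranked 465 of 2432. It was 3.77 at the exon peak of *YUC7* (rank 686), 2.86 at *YUC8* (rank 1422) and 2.79 at *YUC3* (rank 1497). The median over all reproducible peaks was 3.04, so both peaks of *YUC7* lay above the median and the other 2 below it. The −log10 p was 113.7 at the distal peak and 71.7 at the exon peak of *YUC7*, 41.5 at *YUC3* and 38.0 at *YUC8*. By this measure *YUC3* stood above *YUC8*, the opposite of their order by fold enrichment. All 4 peaks had the top score of 1000, as did 68.2% of the reproducible peaks.

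**Figure D1:**
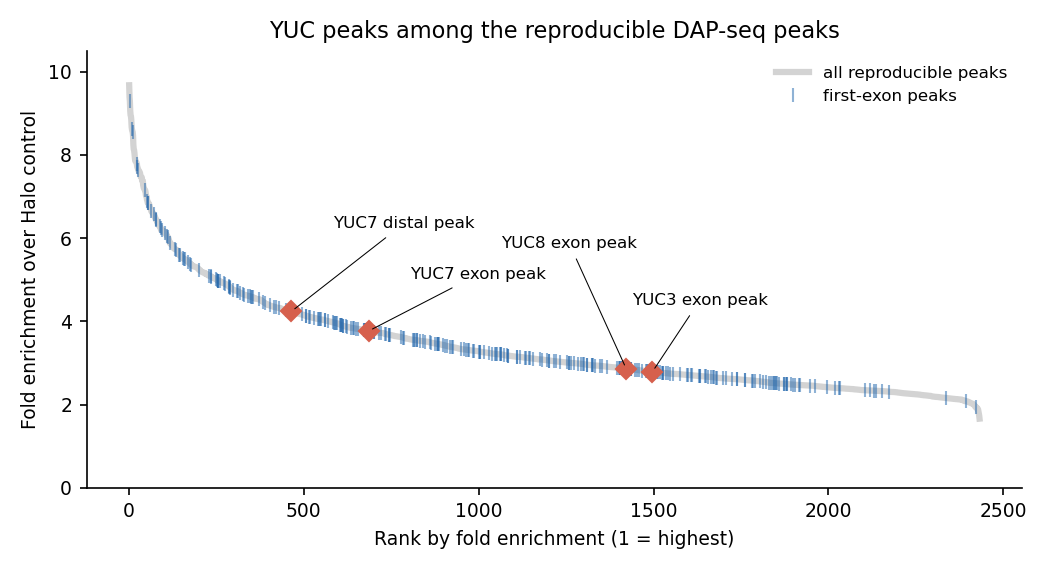
Fold enrichment over the Halo control (y axis) of all 2432 reproducible peaks against their rank (x axis, 1 is the highest), with first-exon peaks as blue ticks and the 4 *YUC* peaks as red diamonds. The *YUC7* peaks sit at ranks 465 and 686, and the *YUC8* and *YUC3* peaks at ranks 1422 and 1497.

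The *YUC7* gene had a peak on each side of its start. The exon peak lay on chromosome 4 from 16217007 to 16217483, in exon 1 of 3, and the distal peak from 16223000 to 16223495, in DNA annotated as intergenic. The sources used here do not give the genome build, and positions are those of the lists. The distances in the study's peak annotation place the gene on the minus strand with its start at 16217606. The exon summit, at 16217261, was thus 345 bp downstream of the start, and the distal summit, at 16223248, lay 5642 bp upstream of it. The summits were 5987 bp apart, and for each of the pair the other was the nearest reproducible peak. Of 1876 genes named in the annotated rows, 111 had 2 or more peaks, and 5 of these, *YUC7* among them, had both a first-exon and an intergenic peak. Among 175 intergenic peaks, the distal peak of *YUC7* ranked 29 by fold enrichment. Assignment to *YUC7* rests on the nearest gene start, and no assay of contact between the site and the gene was used.

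Each call at the distal peak of *YUC7* was well above the median of its list. It reached 3.86-fold in the whole-library list. The longer pseudoreplicate list gave 3.58-fold and the shorter one 4.74-fold, for a mean of 4.06 ± 0.606 (SD, n = 3 lists). This SD spans a whole library and random parts of others, so it is not a spread over whole libraries. The medians of these lists were 2.37, 2.53 and 2.63. The shorter list thus gave the highest value, and there the peak ranked 229 of 3253. Its log2 ratio of the shorter to the whole-library list was 0.30, against a median of -0.10 over 1574 peaks called in both, and 92.0% of these peaks had a lower ratio. The 3 calls peaked within 1, 3 and 8 bp of the reproducible summit.

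The exon peak of *YUC7* was called in only 2 of the 3 single-library lists. The whole-library list gave it a fold enrichment of 3.90, where it ranked 657 of 4778, and 3.77 in the longer pseudoreplicate list, where it ranked 615 of 3753. The shorter pseudoreplicate list had no call that overlapped it, although that list had its strongest *YUC* call 5987 bp away at the distal site. The whole-library list had a call at 98.8% of all reproducible peaks, the longer pseudoreplicate list at 92.1% and the shorter one at 65.0%. A call missing from the shorter list was thus common, and 28.9% of the reproducible peaks were called in the other 2 lists but not in this one. It was less common at the level of enrichment of this peak. Of the 200 peaks nearest to it in rank, a comparison chosen after the values were seen, 92.5% were called in the shorter list (95% exact binomial interval 87.9 to 95.7%, counting error over peaks only). The lists hold no value for places without a call, so the enrichment at this exon in that part of the reads is unknown. Whether the whole library would have a call there is also unknown.

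**Figure D2:**
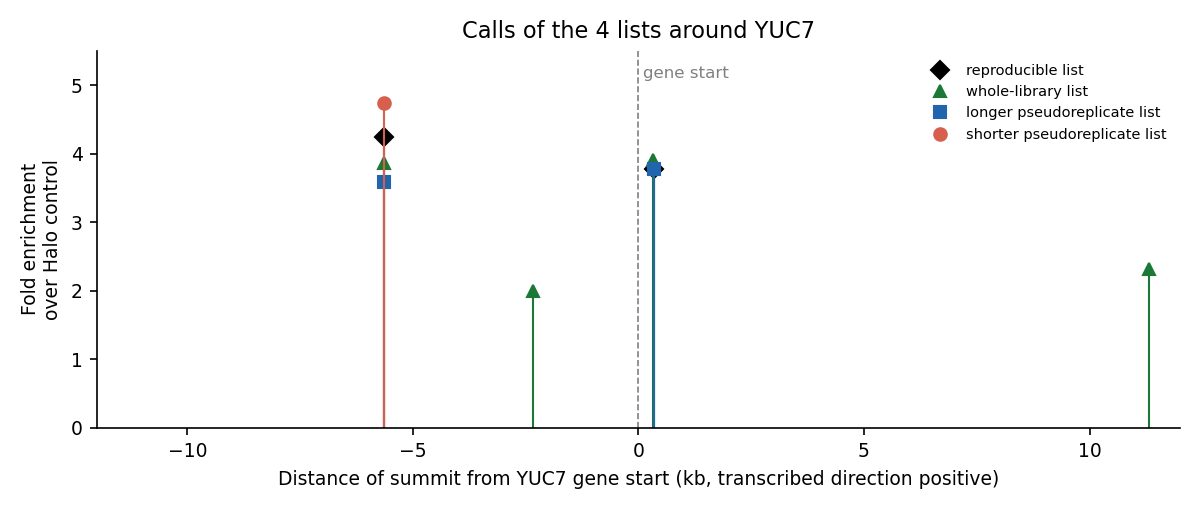
Fold enrichment over the Halo control (y axis) of each call within 12 kb of the *YUC7* gene start, at the distance of its summit from that start (x axis, kb, positive in the direction of transcription), by list. All 4 lists have a call at the distal site, from 3.58 to 4.74, the shorter pseudoreplicate list has none in the exon, and the 2 weaker calls with 1.99 and 2.31 come from the whole-library list.

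The *YUC8* peak covered the beginning of a gene with a single exon. It lay on chromosome 7 from 19141857 to 19142402, in exon 1 of 1, and its first base coincided with the gene start computed from the annotated distances, on the plus strand. The summit, at 19142175, was 318 bp downstream of the start. The whole-library list gave a fold enrichment of 2.87, and the longer and shorter pseudoreplicate lists gave 3.22 and 3.21, for a mean of 3.10 ± 0.198 (SD, n = 3 lists). Both pseudoreplicate lists thus gave more than the whole-library list, with log2 ratios of 0.17 and 0.16 against medians of -0.05 and -0.10 over the shared peaks. The call in the shorter list was 402 bp wide, and 98.2% of the peaks in that list were narrower. Its summits were the most scattered of the 4 peaks, at 306, 311 and 339 bp from the gene start. They lay 12, 7 and 21 bp from the reproducible summit, where the medians over all shared peaks were 6, 8 and 12 bp. Of the 3 genes, the study's list of genes found by ChIP-seq as well as DAP-seq, which was held in full, names *YUC8* alone. The ChIP-seq interval assigned to *YUC8* overlaps the DAP-seq peak. The share of all genes with a DAP-seq peak that this list names was not computed, so its naming of *YUC8* is a description only.

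The *YUC3* peak had the lowest enrichment of the 4 and the smallest SD over the lists. It lay on chromosome 1 from 1314912 to 1315373, in exon 1 of 3, with its summit at 1315116. The whole-library list gave a fold enrichment of 2.84, and the longer and shorter pseudoreplicate lists gave 2.76 each, for a mean of 2.79 ± 0.0481 (SD, n = 3 lists). Here too, the SD is not a spread over whole libraries. The log2 ratio to the whole-library list was -0.04 in both pseudoreplicate lists, against medians of -0.05 and -0.10 over the shared peaks. Of these peaks, 51.0% and 58.3% had a lower ratio, so *YUC3* was near the middle. The *YUC3* summits in the 3 single-library lists fell 2, 5 and 1 bp from the reproducible summit, closer than the median in each list. The −log10 q was 14.1, 8.48 and 2.24, so the call in the shorter list, 171 bp wide, was the weakest of all the *YUC* calls by this measure. With only 1 annotated peak, the strand of *YUC3* could not be derived, and the summit is 335 or 387 bp downstream of the gene start depending on it. The nearest other reproducible peak was 68128 bp away, against 28726 bp for *YUC8*.

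**Figure D3:**
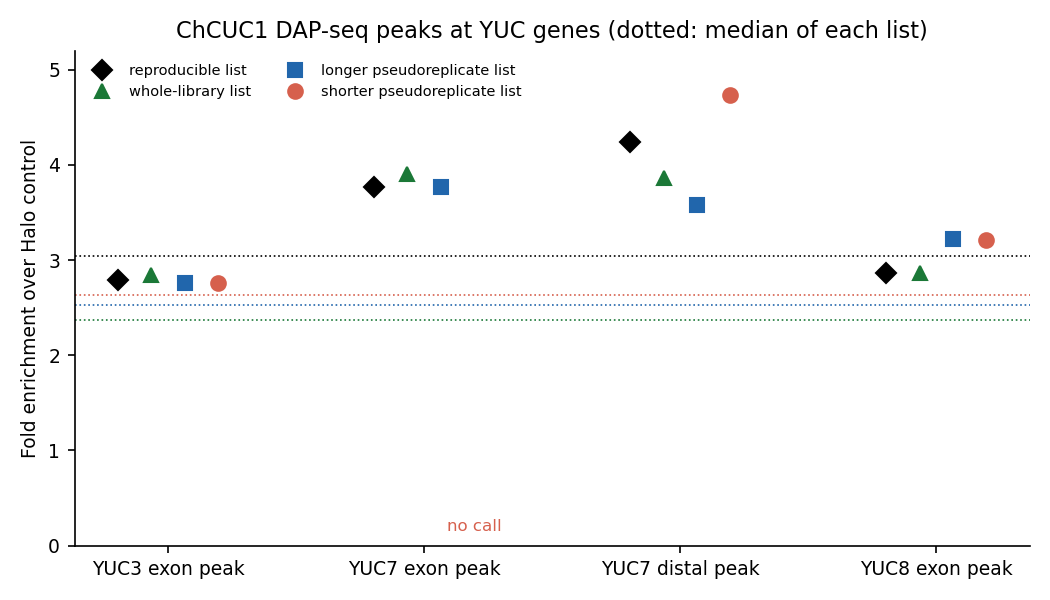
Fold enrichment over the Halo control (y axis) of the 4 *YUC* peaks in the reproducible list and in each single-library list, with a dotted line at the median of each list in the same colour. *YUC3* lies between 2.76 and 2.84 in the single-library lists and the distal peak of *YUC7* between 3.58 and 4.74. The exon of *YUC7* has no call in the shorter pseudoreplicate list.

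The exon peaks shared their place in the gene. The centres of the *YUC3* and *YUC7* exon peaks were both 361 bp downstream of the gene start, and that of *YUC8* was 272 bp downstream. Among 292 peaks annotated to a first exon, the median was 521 bp, and the middle 50% lay between 320 and 845.75 bp. Of these peaks, 28.8% lay nearer to the gene start than those of *YUC3* and *YUC7*, and 19.5% nearer than that of *YUC8*. Their enrichment was not high within this class, whose median was 3.30: *YUC7* ranked 107, *YUC8* 209 and *YUC3* 219. Of the 4 *YUC* peaks, 3 were called in all 3 single-library lists. So were 62.5% of all reproducible peaks and 71.6% of the first-exon peaks, so a share of 3 in 4 is close to the background. At an overlap of 50% of both peaks, only 1 of the 4, that of *YUC8*, was called in all 3, against 14.6% of all reproducible peaks. This count depends on width, whose median was 196 bp in the shorter list and 486.5 bp in the reproducible list. In the shorter list, the calls at *YUC3* (171 bp) and the distal peak of *YUC7* (232 bp) were too narrow to cover 50% of reproducible peaks of 462 and 496 bp. These calls are not independent of the reproducible list, which the authors drew from the same libraries.

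**Figure D4:**
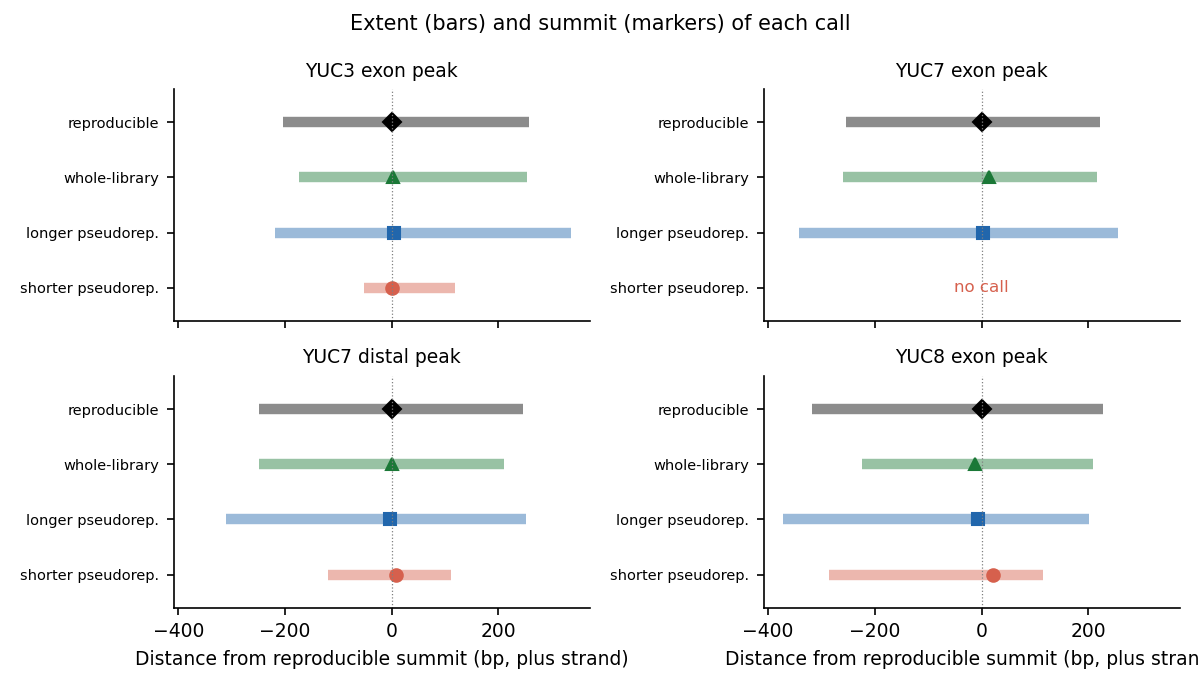
Extent (bars) and summit (markers) of the call at each *YUC* peak in the 4 lists, as distance in bp from the reproducible summit along the plus strand (x axis). The summits fall within 21 bp of the reproducible one, and the calls of the shorter pseudoreplicate list, 171 bp wide at *YUC3* and 402 bp at *YUC8*, are the narrowest at each peak where it has one.

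The 4 peaks were compared within each single-library list, because the lists come from different libraries of unknown depth. The distal peak of *YUC7* exceeded *YUC3* by 0.53 ± 0.22 on the log2 scale of fold enrichment (SD, higher in 3 of 3 lists) and *YUC8* by 0.38 ± 0.21 (3 of 3 lists). The *YUC8* peak exceeded *YUC3* by 0.15 ± 0.12 (3 of 3 lists), with a difference of only 0.01 in the whole-library list. In the 2 lists with a call, the exon peak of *YUC7* exceeded *YUC3* by 0.45 in both and *YUC8* by 0.23 and 0.44. The peaks of *YUC7* were close to each other where both were called, with the exon higher by 0.01 and 0.08, whereas in the reproducible list the exon minus the distal peak gave -0.17. Their order is thus not settled by these lists. The exact sign-flip permutation test, two-sided, gave p = 0.25 for each of the 3 pairs with 3 lists and p = 0.5 for each of the 3 pairs with 2 lists, which are the smallest values that these numbers allow. After Benjamini-Hochberg adjustment over the 6 pairs, the exact p was 0.5 for all. No pair could therefore pass a threshold of 0.05. The lists shared 1 pooled control, so its error is common to them.

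Lists of auxin synthesis genes and of other flavin monooxygenase genes were looked up in the annotated rows, which cover 1997 of the 2432 peaks. Beyond the 3 *YUC* genes, 2 members had a peak, and only 1 of them belongs to a route to auxin. The number of genes in the genome was not used here, so the share of all genes with a peak is unknown and the counts are given as they stand. Of 11 *YUC* genes, 3 had a peak and the other 8 had none in these rows. None of the 5 *TAA1/TAR* aminotransferase genes, which act one step before the *YUC* genes, had one, nor any of 9 genes of tryptophan synthesis, the pathway that supplies the precursor. Among 8 genes of other routes to auxin, only the match of *AMI1* (CARHR008880), which encodes an amidase able to release auxin from indole-3-acetamide, had a peak. It lay in exon 8 of 9 with a fold enrichment of 2.62 and a score of 735, below all 4 *YUC* peaks, and was called in 2 single-library lists. Among 6 other flavin monooxygenase genes, the match of *FMO GS-OX1* (CARHR057740), whose product oxygenates the side chain of glucosinolates and makes no auxin, had a promoter peak with a fold enrichment of 8.93 (rank 6), above all the *YUC* peaks. The 435 rows not used here hold the peaks with the lowest −log10 p, so a weak peak at another member of these lists may be among them.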

How the data were processed

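DAP-seq peaks came from 3 ChCUC1 and 3 Halo control samples. The authors aligned the reads and called the peaks. Bowtie, MACS2 and bedtools are named in the submitters' processing notes, with versions and genome build not given in the sources used here. By the names of the single-library lists, duplicates were removed and peaks called at a p-value of 0.01. The fold enrichment (a ratio over the Halo control), the −log10 p-value and −log10 q-value, the score and the summit are the deposited values. No genome of the build was used, so no sequence or motif is shown.

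Positions were compared in Python 3.11.15 (SciPy 1.17.1, NumPy 2.4.6, pandas 2.3.3), with plots by matplotlib 3.10.9. An overlap of 1 bp or more counted as a call in a list. Where calls overlapped, the highest fold enrichment was taken; each *YUC* peak had at most 1 call per list. Genes, exons and distances came from the study's peak annotation, held for 1997 of 2432 peaks (82.1%), and gene starts were computed from these distances. Overlap counting was tested on simulated data. The members and the gene lists, of 39 genes, were chosen with earlier results of these data known. Named were the 3 *YUC* genes and every gene of the lists with a peak. The alternatives were other overlaps, stricter thresholds, other rankings, other points of the peak and each list left out in turn. The authors' own expression comparisons were not used.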

Additional observations from a re-analysis of the deposited data

Results flagged for a closer look

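Within 12 kb of the *YUC7* gene start, the whole-library list had 2 calls outside the reproducible peaks, which no comparison above used. One, enriched 1.99-fold with a −log10 q of 2.97, had its summit on chromosome 4 at 16219941, or 2335 bp upstream of the start, between the 2 *YUC7* peaks. The other, with 2.31 and a −log10 q of 6.07, lay at 16206281, or 11325 bp downstream. Neither overlapped a call in the pseudoreplicate lists, and both were below the median of 2.37 of their own list. No such call was found within 12 kb of *YUC8*, or of the *YUC3* summit.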

How the results depend on the processing

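No paired analysis was possible because no list has a replicate number and the Halo control reads were pooled, so ChCUC1 and control samples could not be paired; the differences between peaks were taken within lists. Of the alternative values, 62 were counted as unchanged and 23 as moved, and none reversed. Some could not change: no *YUC* peak had more than 1 call per list, so taking the nearest summit altered nothing. A peak called in all 3 lists always keeps 2 when a list is left out. A fall from 3 to 2 lists also counted as unchanged, so the tally does not measure robustness. The order of the *YUC7* peaks, which differed between the single-library and reproducible lists, was not among the alternatives. The tests between peaks could not pass 0.05, so for them only the direction was followed. The exon peak of *YUC7* had between 1 and 2 calls with each list left out in turn. At an overlap of 50% of both peaks, *YUC3* and the distal peak of *YUC7* had a call in 2 lists. The share of peaks with a higher value depended on the measure and on the peaks ranked, as their makeup differs. It was 61.5% for *YUC3*, 58.4% for *YUC8*, 28.2% for the exon and 19.1% for the distal peak of *YUC7*. By −log10 p it was, in this order, 57.8, 62.4, 31.9 and 15.5%; at the top score 88.2, 84.4, 41.3 and 28.0%; set against first-exon peaks, which do not include the distal peak, 74.7, 71.2, 36.3 and 23.3%; and set against peaks in all 3 lists, which do not include the exon peak of *YUC7*, 82.4, 80.1, 44.3 and 30.3%. The centre of the peak lay 361 bp from the gene start at the exon of *YUC7* and 272 bp at *YUC8*, against summits at 345 and 318 bp. The summit was at 332 bp for the exon of *YUC7* in the whole-library list, and at 339 bp for *YUC8* and -5650 bp for the distal peak in the shorter pseudoreplicate list. For *YUC3*, with no strand, these alternatives were not run. The cause of these shifts was not tested.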

Other observations

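The study's ChIP-seq annotation, of which the rows with the highest rank were held, assigns intervals to *YUC2* as well as to *YUC8*. *YUC2* is another member of the family, active in *A. thaliana* shoots and flowers. None of the 4 DAP-seq lists had a call in either of the 2 intervals of *YUC2*, 1 in its first exon and 1 intergenic. Each of the 4 lists had 1 call overlapping that of *YUC8*, with a fold enrichment from 2.86 to 3.22. The share of all ChIP-seq intervals with a DAP-seq call was not computed. Whether *YUC2* or *YUC8* is the usual case is therefore unknown. The lists hold no read counts, so no limit on the enrichment at *YUC2* can be given.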
